A study of Cricetulus griseus and Cricetulus griseus
Mus musculus and Mus musculus with 202 samples.

Results

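The proteasome is the protease complex that degrades proteins tagged with ubiquitin. Its barrel-shaped core consists of rings of alpha subunits, which gate the entrance, and rings of beta subunits, some of which cleave peptide bonds. A regulatory cap of ATPases and non-ATPase subunits recognises ubiquitinated proteins, unfolds them and feeds them into the core. Dedicated chaperones assemble rings and cap, and interferon-inducible beta subunits replace the constitutive catalytic ones in immunoproteasomes, which supply peptides for presentation to T cells.

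Genes were taken by symbol: every probe with 1 gene symbol that begins with Psma, Psmb, Psmc, Psmd, Psme, Psmf or Psmg followed by a number. This gave 49 of 17786 probes with 1 symbol, and 47 of 16504 genes. Psmc2 and Psme4 had 2 probes each, which were averaged. Of the 47 genes, 45 encode subunits of the core or the cap, activators, an inhibitor or assembly chaperones. The other genes match by name alone: Psmc3ip encodes a factor of meiotic recombination, and Psme3ip1 encodes a protein that binds the activator Psme3. Psmb6, Psme2, Psme2b and Psmg4 were not analysed here.

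The 198 hybrid arrays covered 99 mouse-hamster hybrid lines of the T31 radiation hybrid panel, each set against A23, the hamster line that received the mouse DNA, on 2 arrays. The other 4 arrays set mouse whole brain against hamster whole brain, and mouse whole liver against hamster whole liver, on 2 arrays per tissue. Radiation hybrid lines are clones that carry different random fragments of an irradiated donor genome beside the whole recipient genome. A23 lacks thymidine kinase, and the hybrids were selected for a copy from the mouse. Hybrids and A23 were grown alike in serum-containing medium and harvested before confluence. The sources used here do not give strain, age or number of the animals behind the tissue RNA.

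Each value is a log2 ratio, of hybrid over A23 or of mouse over hamster. Replica 1 and replica 2 of a line or tissue have exchanged dyes, so a replica is also a dye orientation. A probe returns a single ratio for the transcripts of both species, and carries no level, so neither the tissues nor the cell line could be checked by defining markers being present or absent. As a check of the hybrid label, Tk1, the selected thymidine kinase gene, averaged 1.84 ± 0.08 (SE, n = 99 lines). The spread of an array (SD) ran from 0.40 to 2.43 around a median of 0.84, with line 42 the widest. When all genes were used, 28 lines had a first array that correlated better with their own second array than with any other line's second array. Whether some arrays carry the label of another line was not tested. Values for these 28 matched lines are given beside most of the panel means below. The number of arrays sets the precision, and signal over background is not known here.

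The panel mean asks whether the hybrids as a group stood above or below A23. With both dye orientations averaged, more proteasome genes lay below A23 than above it, and the balance turned with the orientation. Of the 47 genes, 7 were higher (14.9%, against 19.5% of all genes tested) and 11 were lower (23.4%, against 11.4% of all genes). In total 38.3% were called, against 31.0% of all genes. Calls required limma's adjusted p (Benjamini-Hochberg) to be under 0.05 and the mean to be at least 0.2 from 0. The median over the 47 genes was -0.07, against 0.01 over all genes, and 30 of the 47 means were below 0. In the 28 matched lines limma called 12 of the 47 genes higher and 0 lower (15.5% and 5.65% of all genes, 21.2% in all). Before adjustment, 17 were higher and 4 lower there at a limma p under 0.05 (23.3% and 15.7% of all genes). That fit leaves out 71 lines.

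Replica 1 alone had 4 genes higher and 18 lower, with 34 of 47 means below 0 and a median of -0.15 (36.9% and 24.8% of all genes, 61.6% in all). Replica 2 alone had 13 higher and 11 lower, with 26 means above 0 and a median of 0.06 (22.3% and 26.0% of all genes, 48.3% in all). The median of the 47 genes thus changed sign with the dye orientation. Replica 2 minus replica 1 was called for 31 of the 47 genes, 20 positive and 11 negative (66.0%, against 68.2% of all genes, of which 29.3% were positive and 39.0% negative). The sign of the mean differed between the orientations in 27 genes (57.4%, against 61.3% of all genes). The widest gap belonged to Psme3, the nuclear activator, which averaged -0.94 in replica 1 and 0.41 in replica 2. Psme3, Psma1, Psmg1 and Psme1 differed by 1.35, 1.16, 1.10 and 1.01. At the other end Psmc5 and Psme3ip1 each had replica 2 lower than replica 1 by a difference of -0.84. Only 5 genes, Psma3, Psma6, Psmb2, Psmd1 and Psmd8, were called the same way in each orientation alone, all of them lower (among all genes, 3.26% were lower, 6.08% higher and 9.34% either).

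**Figure D1:**
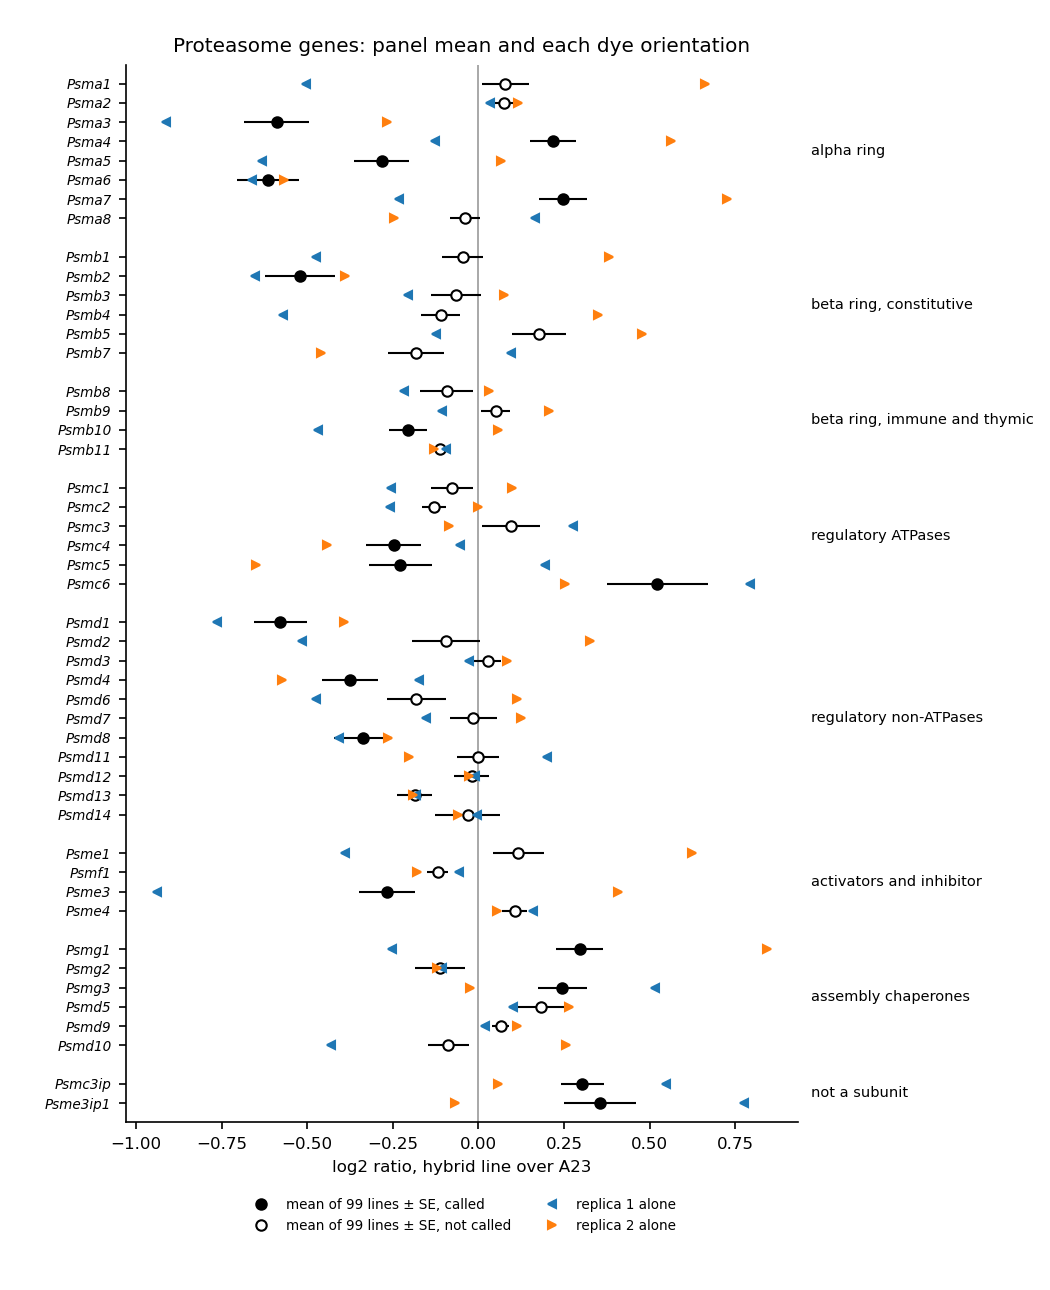
Mean log2 ratio of hybrid over A23 for the 47 genes, grouped by role. Circles with bars give the mean of 99 lines ± SE, filled where called, and triangles give replica 1 and replica 2 alone. Psma6 and Psma3 lie lowest at -0.61 and -0.59, Psmc6 lies highest at 0.52, and for 27 genes the triangles fall on opposite sides of 0.

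In the alpha ring, whose subunits form the outer gate of the core, 2 of 8 genes were higher and 3 were lower. For this and the groups below, the shares of all genes were 19.5% higher and 11.4% lower, and the groups are small. Psma6 ran from -4.32 to 1.39 over the 99 lines with a median of -0.50, and 17 lines lay above 0. Its mean of -0.61 ± 0.09 (SE, limma adjusted p = 1.06e-08) was 1.53-fold below A23, at -0.66 in replica 1 and -0.57 in replica 2. Psma6 was thus lower to about the same extent with either dye. Psma3 ranged from -3.61 to 1.30 with a median of -0.51, and averaged -0.59 ± 0.09 (limma adjusted p = 9.87e-08). Its mean was -0.91 in replica 1 and -0.27 in replica 2, so that both orientations were below 0 but unequal. In the matched lines these means were -0.29 for Psma6 and -0.16 for Psma3, and neither was called there.

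Psma5 averaged -0.28 ± 0.08, at -0.63 in replica 1 and 0.07 in replica 2, and its mean of -0.20 in the matched lines was not called. Psma7 and Psma4 were the higher members of the ring, at 0.25 ± 0.07 and 0.22 ± 0.07. Both were carried by replica 2: Psma7 averaged -0.23 in replica 1 and 0.73 in replica 2, and Psma4 averaged -0.13 and 0.56 there. Psma4 and Psma7 kept their calls in the matched lines, at 0.63 and 0.28. The remaining means of the ring, including that of Psma8, a subunit used in testis, lay within 0.08 of 0.

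Among the constitutive beta subunits 0 of 6 genes were higher and 1 was lower. Psmb2, a structural beta subunit, ran from -4.34 to 2.89 over the lines with a median of -0.42, and lay above 0 in 35 lines. It averaged -0.52 ± 0.10 (SE, limma adjusted p = 9.24e-06), at -0.65 in replica 1 and -0.39 in replica 2. In the matched lines its mean was -0.10 and not called. Psmb5, which carries the chymotrypsin-like activity, averaged 0.18 ± 0.08 and missed the size limit. It passed that limit and was called without line 42 (0.21), with arrays scaled to the same spread (0.24) and in the matched lines (0.53). Psmb7, with the trypsin-like activity, averaged -0.18 ± 0.08, at 0.09 in replica 1 and -0.46 in replica 2. Psmb7 averaged 0.13 in the matched lines and was not called. Psmb5 and Psmb7 each changed sign with the dye.

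The beta subunits of immunoproteasomes and of the thymic proteasome stood near A23 too, with 0 of 4 genes higher and 1 lower. Psmb10, the inducible counterpart of Psmb7, averaged -0.21 ± 0.06 (SE, limma adjusted p = 9.35e-04), just past the size limit, and -0.18 without line 42, where it was no longer called, and 0.04 in the matched lines. Psmb8, the inducible counterpart of Psmb5, averaged -0.09 ± 0.08 (limma adjusted p = 0.312). Psmb9, the inducible counterpart of the constitutive subunit gene Psmb6, averaged 0.05 ± 0.04 (limma adjusted p = 0.317). Line values of Psmb8 ran from -2.56 to 2.28 and those of Psmb9 from -1.21 to 1.33, both with medians within 0.1 of 0. In the matched lines Psmb8 averaged -0.08 and Psmb9 0.13, and neither was called. The partners of these subunits in antigen processing behaved differently from one another. Of 6 such genes, 2 were higher and 3 lower (33.3% and 50%, against 19.5% and 11.4% of all genes). The higher genes were B2m, the light chain of MHC class I, at 1.45 and Tapbp, which loads peptides onto MHC class I, at 0.96. The peptide transporter genes Tap1 and Tap2 and the transcription factor gene Irf1 were lower, at -0.28, -0.47 and -0.52. Tap1 changed sign with the dye, at 0.08 in replica 1 and -0.64 in replica 2. B2m and Tapbp also differed between lines in limma's F test, with 22 and 24 lines above 1 on both arrays. Exact zeros made up 32.3% of the hybrid array values of B2m and 3.54% of those of Tapbp.

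In the ATPase ring, which unfolds substrates, 1 of 6 genes was higher and 2 were lower. Psmc6 had the highest mean of all 47 genes at 0.52 ± 0.15 (SE, limma adjusted p = 0.00173), 1.44-fold above A23. The call was lost in replica 2 alone, at 0.25, and in the matched lines, at 0.58 (limma adjusted p = 0.221). The median over lines was 0.00, 44 lines lay above 0, and the highest line reached 5.40. Of the hybrid array values of Psmc6, 53.5% were exactly 0, and what an exact 0 stands for is not stated in the sources used here, so a median of 0 need not mean a level equal to that of A23. Psmc4 averaged -0.25 ± 0.08, with -0.05 in replica 1 and -0.44 in replica 2. Psmc5 averaged -0.23 ± 0.09, with 0.19 in replica 1 and -0.65 in replica 2. The probes of Psmc2 gave -0.21, which was called, and -0.05, which was not.

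Of the 11 non-ATPase subunits of the cap, 3 were lower in the panel and 0 higher. Psmd1, a large scaffold subunit at the base of the cap, ran from -2.36 to 1.19 over the lines with a median of -0.58, and lay above 0 in 22 lines. It averaged -0.58 ± 0.08 (SE, limma adjusted p = 6.43e-10), 1.49-fold below A23, at -0.76 in replica 1 and -0.39 in replica 2. Psmd1 was therefore lower in most lines and with either dye, while its mean over the matched lines was -0.18 and not called. Psmd8, a subunit of the lid of the cap, averaged -0.34 ± 0.09 (limma adjusted p = 4.78e-04), with -0.41 in replica 1 and -0.26 in replica 2. Its median over lines was -0.11, closer to 0 than the mean, and the matched lines averaged 0.01. Psmd4, a receptor for ubiquitin chains, averaged -0.37 ± 0.08, and -0.18 in replica 1 alone against -0.57 in replica 2 alone. In the matched lines its mean was -0.05 and not called.

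Of the 4 activator and inhibitor genes, Psme3 was lower and the rest were not called. Psme3 averaged -0.27 ± 0.08 (SE, limma adjusted p = 0.00381) from orientation means of opposite sign, given above. Psme1, a subunit of the interferon-inducible activator, averaged 0.12 ± 0.08 (limma adjusted p = 0.179), at -0.39 in replica 1 and 0.62 in replica 2. Each orientation of Psme1 alone passed the test, in opposite directions. Psme1 was higher in the matched lines at 0.33 (limma adjusted p = 0.0261), while Psme3 averaged -0.01 there and was not called.

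Among the assembly chaperones 2 of 6 genes were higher and 0 lower, with a median of 0.12. Psmg1, which pairs with Psmg2 in assembly of the alpha ring, averaged 0.30 ± 0.07 (SE, limma adjusted p = 1.58e-04) and lay above 0 in 69 lines. Its replicas disagreed, at -0.25 in replica 1 and 0.84 in replica 2, and in the matched lines it was higher at 0.53. Psmg3, another chaperone of the alpha ring, averaged 0.24 ± 0.07 with a median over lines of 0.03, and its mean of 0.23 in the matched lines was not called. Both genes that match by name alone were higher: Psme3ip1 averaged 0.35 ± 0.11 and Psmc3ip 0.30 ± 0.06, and both were nearer to 0 in replica 2, at -0.07 and 0.06. Psmc3ip was higher in the matched lines at 0.44, and Psme3ip1 averaged 0.38 and was not called.

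The second question was whether lines differed from each other by more than the 2 arrays of a line did. Of the 47 genes, 4 passed limma's moderated F test over lines at an adjusted p under 0.05 (8.51%, against 8.88% of all genes). These were Psmg3, Psmc6, Psme3ip1 and Psmd5, a chaperone of the ATPase ring. In each of them between 6 and 13 lines stood above 1 on both arrays. That count alone does not set them apart, since Psmd14 had 10 such lines without a call (limma F test adjusted p = 0.282). No gene of the alpha ring, the beta rings or the non-ATPase subunits was called.

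Psmg3 repeated best between arrays, with an intraclass correlation of 0.60 between the arrays of a line (F = 3.95, limma adjusted p = 1.76e-09). Of all 16504 genes, 0.854% had a higher one. Line means of Psmg3 ran from -0.77 to 3.13. In 6 lines both arrays exceeded 1, and those lines had means from 1.60 in line 49 to 3.13 in line 13. Line 13 gave 4.32 in replica 1 and 1.94 in replica 2, and line 14 gave 3.15 and 2.10. The high values came from both dyes, and were larger in replica 1 for 5 of the 6 lines.

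Psmc6 had an intraclass correlation of 0.56 (F = 3.61, limma adjusted p = 2.11e-08). Both arrays exceeded 1 in 13 lines, with line means from 2.41 in line 56 to 5.40 in line 21. Line 21 gave 6.64 in replica 1, a value at the limit of the deposited ratios, and 4.16 in replica 2. Line 87 gave 5.99 and 4.77. Psmc6 could not be tested between lines with its exact zeros taken as missing.

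Psme3ip1 had an intraclass correlation of 0.42 (F = 2.52, limma adjusted p = 8.97e-05) and 10 lines above 1 on both arrays, led by lines 14 and 82 with means of 3.93 and 3.92. Exact zeros made up 10.6% of its values. Psmd5 was the weakest of the 4, with an intraclass correlation of 0.25 (F = 1.73, limma adjusted p = 0.0402). Its 8 high lines were led by line 24 with a mean of 3.09 and line 15 with 3.06. With each array scaled to the same spread the adjusted p of Psmd5 was 0.182, and without a term for dye orientation it was 0.075. Psma2, of the alpha ring, came next at an adjusted p of 0.064 in limma's F test and was not called. With each probe fitted alone, 1 probe of Psme4 differed between lines (F = 1.94, limma adjusted p = 0.00921). The other probe of Psme4 did not (F = 0.99, limma adjusted p = 0.805), nor did their mean.

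**Figure D2:**
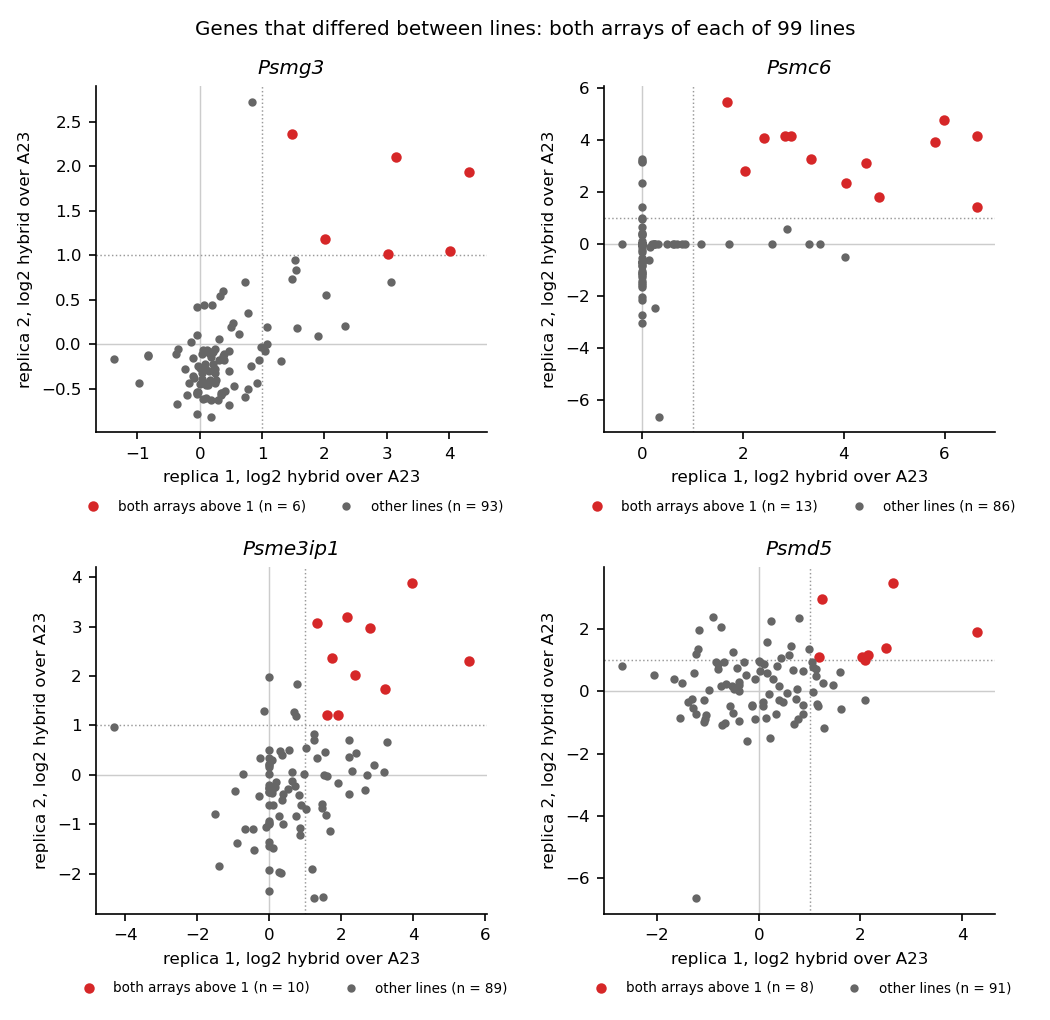
Both arrays of each of 99 lines for the 4 genes that differed between lines, as log2 hybrid over A23 in replica 1 (horizontal) and replica 2 (vertical). Red points are lines above 1 on both arrays (dotted lines): 6 for Psmg3, 13 for Psmc6, 10 for Psme3ip1 and 8 for Psmd5. Points of Psmc6 along the axes are values of exactly 0.

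The high lines of these genes overlapped in part. Psmc6 and Psme3ip1 shared 5 lines, which is 38.5% of the high lines of Psmc6 and 50% of those of Psme3ip1, and across the 99 lines their means correlated at r = 0.33. Psmc6 and Psmg3 shared 2 lines, 15.4% and 33.3% of their high lines. Every other pair of the 4 genes shared 1. Correlations of this kind are descriptions over 99 lines whose genes share arrays, and the positions of the genes in the mouse genome were not analysed here.

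The 4 genes that differed between lines also had high mouse over hamster ratios in the tissues, although none of them was called there without the replicate block. Averages of at least 1 in brain and in liver were found for 5 of the 47 genes: Psmc6, Psmd5, Psmd9, Psme3ip1 and Psmg3. Of these 5, 4 differed between lines, against 40.6% of the 1766 genes of the whole array with such averages. Of the 32 proteasome genes with both tissue averages between -1 and 1, 0 differed between lines by limma's F test, against 3.57% of all such genes, and 2 had an unadjusted p under 0.05 (11.6% of all such genes). Psmd9, a chaperone of the ATPase ring, was the exception among the 5, with 1.35 in brain and 1.05 in liver but line means with an SD of only 0.23. Over the 47 genes the intraclass correlation and the mean tissue ratio had a Spearman rho of 0.39, which was 0.20 over the other 43 genes and 0.17 over all genes. Genes are not independent replicates, and the tissue arrays used other RNA than the hybrid arrays.

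**Figure D3:**
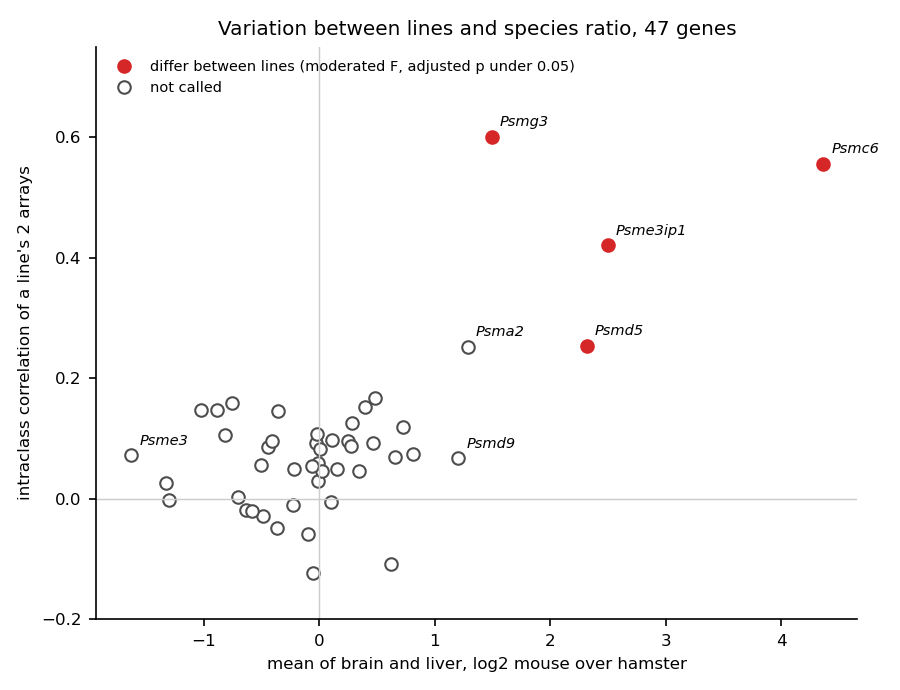
Intraclass correlation of the 2 arrays of a line (vertical) against the mean log2 ratio of mouse over hamster in brain and liver (horizontal) for 47 genes. Filled points differ between lines in limma's F test. The 4 filled points lie to the right of 1, with Psmg3 highest and Psmc6 farthest right, and Psmd9 lies to the right of 1 without a call.

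Members of the complex also varied together when read on the same arrays. Across the replicas of a line their median correlation was near 0. With the orientation mean removed, the median Pearson r over the 1081 pairs of the 47 genes was 0.28 across the 99 line means, against a median of 0.00 over pairs of all genes. With arrays scaled to the same spread it was 0.14. Within constitutive beta subunits the median was 0.68, within ATPases 0.55, within non-ATPases 0.41 and within the alpha ring 0.40. Within the assembly chaperones it was -0.01, and within activators and inhibitor -0.07. Within the immune and thymic beta subunits it was 0.24. With members outside the group, the medians were 0.50 for constitutive beta subunits, 0.38 for ATPases, 0.34 for non-ATPases and 0.26 for the alpha ring. They were 0.17 for immune and thymic beta subunits, 0.11 for chaperones and 0.08 for activators and inhibitor. Pairs within the core rings and the cap thus had positive medians, but much of each was also found with members outside the group. Pairs of chaperones or activators had medians near 0. These medians by role are of values from the same arrays, and none is given here for crossed replicas.

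The closest pair was Psma3 with Psma6, at r = 0.93 over line means, 0.94 in replica 1 and 0.89 in replica 2. When Psma3 was read in one replica and Psma6 in the other, r was 0.14 and 0.01. Psmb8 and Psmb9, which are induced together by interferon, correlated at 0.60 over line means and at 0.07 and 0.09 across replicas. Over all pairs read in crossed replicas the median r was 0.02, against 0.00 over all genes. Removal of the first 5 principal components of the line means left a median of 0.03. Within single replicas the medians were 0.29 for replica 1 and 0.24 for replica 2. The median correlation was thus positive where both genes were read on the same arrays. It was near 0 between the arrays labelled as one line, of which 28 of 99 pairs were matched. The part of mixed labels in this was not tested.

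The mean over the 47 genes put each line on a scale from -1.37 in line 42 to 0.68 in line 24, with a median of 0.02. Line 42 had -2.07 in replica 1, the lowest of the panel, and -0.66 in replica 2. The mean of a line in replica 1 and its mean in replica 2 correlated at r = 0.06 and Spearman rho 0.02 over 99 lines. Both replicas were below 0 in 23 lines and above 0 in 31, and the other lines had one of each sign. In replica 1 the mean correlated at r = -0.40 with the spread of the array, and in replica 2 at 0.09. The mean over the 47 genes was thus hardly repeated between arrays that carry the same line label. Psmd11, Psma8 and Psmd9 ran against the rest on the same arrays, with mean correlations with the other members of -0.28, -0.24 and -0.18. Of their hybrid array values, 31.8%, 7.07% and 0.505% were exactly 0.

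**Figure D4:**
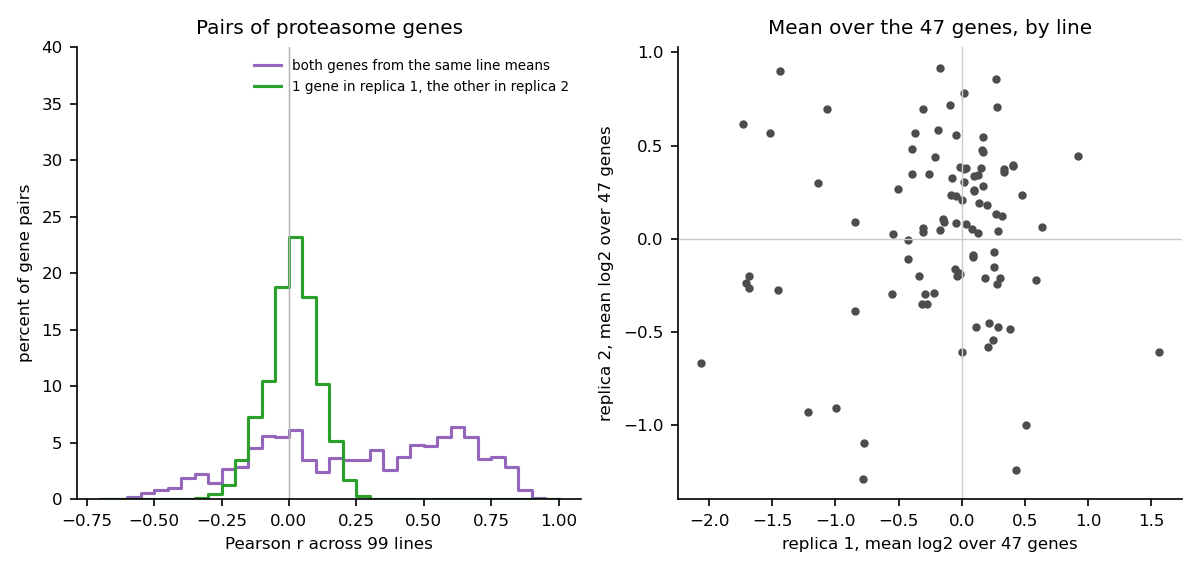
Left, percent of gene pairs by Pearson r across 99 lines, for both genes from the same line means (purple) and for 1 gene in replica 1 with the other in replica 2 (green), with medians of 0.28 and 0.02. Right, the mean log2 hybrid over A23 over the 47 genes for each line in replica 1 (horizontal) and replica 2 (vertical), r = 0.06.

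The deposited tissue values were centred per feature over the 4 arrays, which bears on the sign and order of single arrays but cancels in the mean of a tissue. This offset changes the spread in the fit without a replicate block, so that calls can be missed or gained. A median over 4 ratios rests on the middle 2. Where those are the arrays of 1 tissue, the centring ties their values together, as for Psmg2 in liver, at 0.053 and 0.051. The adjusted p-values of this fit therefore do not measure replicate spread alone. Counts of that fit come first, and counts with the block follow. In whole brain, mouse was lower than hamster for 4 of the 47 genes and higher for 0 (8.51% called, against 16.0% of all genes, of which 10.1% were higher and 5.91% lower). Lower genes were Psmd11, a lid subunit that holds the cap and core together, the chaperones Psmg1 and Psmg2, and Psmf1, an inhibitor of the core. Psmd11 read -1.85 in replica 1 and -1.69 in replica 2, a mean of -1.77 ± 0.18 (SE, n = 2 arrays, limma adjusted p = 0.0282). Psmg1 read -1.41 and -1.31, Psmf1 -1.14 and -0.88, and Psmg2 -0.92 and -0.81. Their limma adjusted p-values were 0.0239 for Psmg1, 0.0397 for Psmf1 and 0.0339 for Psmg2. None of these calls was kept without 1 of the 4 tissue arrays. Such a fit leaves 1 array in a tissue and 1 residual degree of freedom, too few to show whether a call is firm. Without adjustment, 13 genes were higher and 13 lower at a limma p under 0.05 (25.8% and 21.2% of all genes).

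In whole liver, mouse was higher than hamster for 1 gene and lower for 0 (2.13%, against 4.61% of all genes, of which 2.35% were higher and 2.26% lower). The gene was Psma2 of the alpha ring, which read 2.04 in replica 1 and 1.71 in replica 2, a mean of 1.87 ± 0.16 (SE, n = 2 arrays, limma adjusted p = 0.0401). In brain Psma2 read 0.86 and 0.53 and was not called. The call of Psma2 was not kept without 1 of the tissue arrays either, where the same limit applies. Psme3 had the lowest liver mean at -2.73, from -1.97 and -3.49 (limma adjusted p = 0.0626).

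The replicate number is the dye orientation, and the centring offset enters replica 1 and replica 2 with opposite sign. The tissues were therefore also fitted with that number as a replicate block, which takes up the offset and leaves 1 residual degree of freedom. With the block, 5 genes were higher in mouse brain (Psmc6, Psmd5, Psmd9, Psme3ip1 and Psmg3; 21.1% of all genes were higher) and 5 were lower, the 4 above and Psmc5 (10.5% of all genes, and 31.6% in either direction). In liver 6 were higher, Psma2 and the same 5 genes (16.3% of all genes), and 3 were lower, Psmc5, Psmd3 and Psme3 (9.22% of all genes, and 25.6% in either direction). Psmc6 read 6.62 in replica 1 and 3.19 in replica 2 of brain. In liver it read 6.64, the limit of the deposited ratios, and 0.99, so its liver mean is at least 3.82. Psmd5 read 3.06 and 0.91 in brain, and 4.36 and 0.94 in liver. Psme3ip1 read 3.32 and 2.95 in brain, and 2.82 and 0.89 in liver.

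The catalytic and inducible subunits showed no call in either tissue. Psmb5 averaged -0.11 in brain and 0.09 in liver, and Psmb7 averaged 0.37 in brain and -0.33 in liver. Psmb8 read -0.43 and -0.56 in brain, and 1.72 and 0.40 in liver. Psmb9 stayed within 0.2 of 0 in both tissue means. Psmb10 read 0.46 and 1.56 in brain, and 0.34 and 0.27 in liver. Psme1 averaged -0.20 in brain and 0.75 in liver. Of the 6 antigen processing genes, Tap1 was lower in mouse brain at -2.35, and Erap1, which trims peptides for MHC class I, was higher in mouse liver at 1.15. With the replicate block, 2 of the 6 were higher and 1 lower in brain (21.1% and 10.5% of all genes). In liver 4 were then higher and 0 lower (16.3% and 9.22% of all genes).

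The difference of the tissues, brain minus liver, was called for 0 of the 47 genes by limma, and for 11 at an unadjusted p under 0.05 (32.5% of all genes). Among all genes 3.53% were higher and 2.54% lower, 6.07% in all. With the block 0 of the 47 were called as well, against 4.84% higher and 3.97% lower among all genes, 8.81% in all. Psme3 had the largest difference at 2.19 (limma adjusted p = 0.119) and Psmb8 the lowest at -1.56 (limma adjusted p = 0.161). Brain and liver means had opposite signs in 16 of the 47 genes (34%, against 28.6% of all genes). The probes of Psme4, another activator gene, disagreed in liver at -0.50 and 1.90, so its mean there rests on probes of opposite sign.

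**Figure D5:**
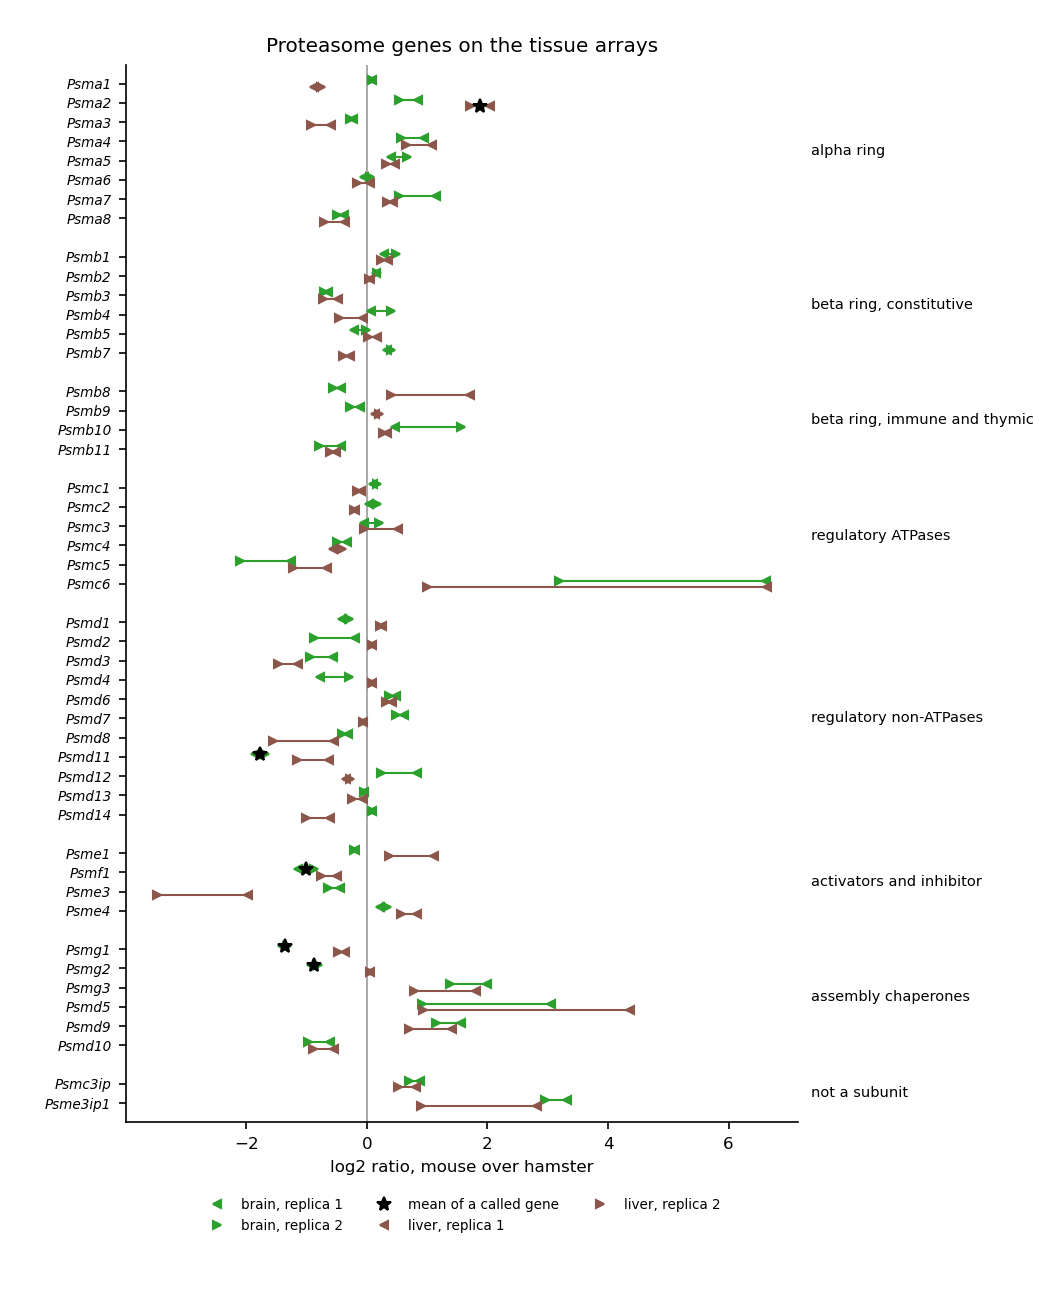
Log2 ratio of mouse over hamster on each of the 4 tissue arrays for the 47 genes, grouped by role, with brain in green and liver in brown, replica 1 as left-pointing and replica 2 as right-pointing triangles joined by a line. Stars mark the means of the 5 calls without the replicate block: Psmd11, Psmf1, Psmg1 and Psmg2 in brain, and Psma2 in liver.

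Markers of microglia and macrophages, cells rich in immunoproteasome, were read beside the tissues. In brain 3 of 10 such genes were higher in mouse (P2ry12 4.79, Ptprc 4.11 and Fcer1g 1.13) and 1 was lower (Itgam -1.27), and in liver 0 were called by limma, with 7 at an unadjusted p under 0.05 (42.5% of all genes). In the panel Ptprc and Cx3cr1 were lower, at -0.27 and -0.24, and 0 were higher (11.4% and 19.5% of all genes). Ptprc averaged 0.17 in replica 1 and -0.71 in replica 2, and 77.3% of its hybrid array values were exactly 0. Ratios hold no summed level of these markers, and their part in the values of Psmb8, Psmb9 and Psmb10 was not tested.

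Genes that work with the proteasome were read from lists of cofactors and of ubiquitin supply. Of all genes, 19.5% were higher and 11.4% lower in the panel, and 8.88% differed between lines. In brain 10.1% of all genes were higher and 5.91% lower, and in liver 2.35% and 2.26%. Of 14 cofactors and regulators, 3 were higher and 3 lower in the panel: Sem1, a small subunit of the lid, at 0.71, the ubiquitin ligase gene Ube3c at 0.44 and Zfand2a at 0.31, against Akirin2, which brings proteasomes into the nucleus, at -0.48, Ecpas at -0.38 and Zfand5 at -0.29. Zfand2a averaged 0.69 in replica 1 and -0.08 in replica 2, and 56.6% of its hybrid array values were exactly 0. Zfand5 averaged -0.94 in replica 1 and 0.36 in replica 2. Sem1 and Ube3c differed between lines (limma F test adjusted p = 1.08e-13 for Sem1), with 20 and 16 lines above 1 on both arrays. In mouse brain Ube3c, Zfand2a and Ube3a were higher, at 4.34, 2.09 and 1.90, and Ecpas was lower at -0.85. Of 13 genes of ubiquitin supply and substrate delivery, 0 were higher and 3 lower in the panel: Usp5, which recycles ubiquitin chains, at -0.41, the segregase gene Vcp at -0.24 and its cofactor gene Nsfl1c at -0.21. Nsfl1c averaged -0.69 in replica 1 and 0.27 in replica 2. Sqstm1, an adaptor for ubiquitinated cargo, was the only gene of these 13 that differed between lines, and it was also higher in mouse brain at 1.76. Faf1 was lower in mouse liver at -1.31. With the replicate block, 7 of the 14 cofactors were higher and 1 lower in brain, and 5 higher and 0 lower in liver. Of the 13 ubiquitin genes, 3 were then higher and 1 lower in brain, and 1 higher and 3 lower in liver. Of all genes, 21.1% were higher and 10.5% lower in brain with the block, and 16.3% and 9.22% in liver.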

How the data were processed

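RNA of 99 T31 hybrid lines and A23, and of mouse and hamster brain and liver, was compared on 202 2-colour arrays. Per the labels, the authors deposited log10 ratios, Cy5 divided by Cy3. How the arrays were scanned, background-corrected and normalised is not given in the sources used here. In 99.3% of the 20868 features the 4 tissue ratios had a median of 1, so the tissue values had been centred per feature. That offset cancels in the mean of a tissue but can widen or narrow the spread of its arrays.

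Ratios were turned by the labelled dyes to hybrid over A23 or mouse over hamster and converted to log2, so that the lowest log10 value of -2 is a limit of 6.64 in replica 1. Probes of a gene were averaged. Symbols came from the array's annotation table. limma 3.58.1 in R 4.3.3 was fitted to all 16504 genes, with Benjamini-Hochberg adjustment over all of them: line means against 0, replica 2 minus replica 1, line as a factor with orientation as a term (moderated F), and tissue as a factor. Orientation calls used the same threshold and size limit of 0.2 as the panel mean, and F and tissue calls used the adjusted p of 0.05 alone. A23 was never set against itself, so its spread between cultures does not enter. The labels name no separate cultures or animals, and p-values then measure only how far these samples spread, which may be technical. In the tissues that spread is also changed by the centring. The intraclass correlation compares the arrays of a line after the orientation mean was removed. In the tissues, same-numbered arrays deviated together (r = 0.44 over 16504 genes). They share a dye orientation, and the centring gives them the same offset, so the parts of dye and centring cannot be told apart.

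Members and lists were chosen with earlier results of these data known. Named genes were the called members (at most 8 in each direction for the panel and 6 for tissues), the catalytic and inducible subunits, Psme1 and Psme3, and up to 3 called genes of related lists in each direction. Scripts were tested on simulated data.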

Additional observations from a re-analysis of the deposited data

How the results depend on the processing

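Leaving out a replicate, which leaves 1 dye orientation, gave 4 to 13 higher and 11 to 18 lower genes in the panel mean, against 7 and 11. In the 28 matched lines, chosen after seeing the data, 12 were higher and 0 lower. Scaling the arrays to the same spread moved the split to 9 higher and 8 lower, and removing the size limit gave 10 and 16. Shares of all genes with scaling or without the limit are not given here. The shift of the members can thus not be set against that of the whole array. Among the genes followed through all fits and called in at least 1, some changed sign when a replicate was left out. Such genes were Psma4 (-0.13 to 0.56), Psma5 (-0.63 to 0.067), Psma7 (-0.23 to 0.73), Psmb10 (-0.47 to 0.057) and Psme1 (-0.39 to 0.62). So did Psme3 (-0.94 to 0.41), Psme3ip1 (-0.068 to 0.78), Psmg1 (-0.25 to 0.84) and Psmg3 (-0.026 to 0.52). Outside the genes followed, Psmc5 averaged 0.19 in replica 1 and -0.65 in replica 2. In all, 27 of the 47 genes had opposite signs in the replicas. Likewise Psmb10 (0.038) and Psmd8 (0.0050) changed sign in the matched lines. Psmb5, Psmb7, Psmb8 and Psmb9 also had opposite signs in the replicas, and Psmb7 turned to 0.13 in the matched lines, where the fit with the opposite sign was not called. The fit to all arrays with orientation as a replicate block and line as a random block kept 7 higher and 11 lower.

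With the replicate block the tissue counts were 5 higher in brain, 6 higher in liver and 3 lower in liver. Fits without 1 tissue array kept none of the brain or liver calls. With 1 array left in a tissue, they cannot show whether a call is firm. In liver, scaling gave 1 lower, and each probe alone gave 2 higher. Brain minus liver stayed at 0 calls in each alternative run. The median pair correlation was 0.14 with scaled arrays and 0.0338 without the first 5 principal components. The number of genes differing between lines was 3 to 5 in all alternatives run. Apart from those with the block, shares of all genes in these alternatives are not given here. With exact zeros missing, Psmc6 and Psmd11 were not tested there. No F test was run on a single replicate, since it leaves no residual degrees of freedom. Promoter motifs were not run, since no promoter sequence was used here. The causes of these shifts were not tested.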
